A study of Homo sapiens with 24 samples.

Results

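The genes described here are 10 genes of squamous epithelium and the cornified envelope, measured by RNA-seq in human pancreas cell lines. They were taken by symbol from the deposited expression tables: SPRR1A, SPRR1B, SPRR2A, SPRR2D, SPRR3, IVL, TGM1, CNFN, KLK10 and S100A7. All 10 were found among 48162 genes. The set was chosen by a measured value, the rise of SPRR2A in HPDE cells kept with residual medium over untreated HPDE cells. Values of that comparison are given below as a description and without a test.

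The 24 libraries came from 2 cell lines under 4 treatments, with 3 libraries for each of the 8 groups. HPNE (hTERT-HPNE) is a telomerase-immortalised line from human pancreas, and HPDE (HPDE-H6c7) is an immortalised pancreatic duct epithelial line. Both lines were cultured in keratinocyte serum-free medium and then kept for 24 h under 1 of 4 treatments. Untreated cells received fresh serum-free medium. Residual medium cells received the medium that remained after extracellular vesicles had been isolated, which served as the negative control. The other groups received 1E10 vesicles per well from PANC-1, a pancreatic carcinoma line (PANC-1 EV), or from PPCL-68 cells (PPCL-68 EV). The design text calls the libraries biological triplicates. Nothing further says that the 3 libraries of a group came from separate cultures, so the p-values measure the spread between libraries, which may be partly technical.

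The cornified envelope is a sheet of crosslinked protein that forms under the plasma membrane of terminally differentiating squamous cells. Involucrin, the product of IVL, is an early scaffold of the envelope. The small proline-rich (SPRR) proteins are short crosslinking proteins built of repeats, and transglutaminase 1, encoded by TGM1, joins these precursors by isopeptide bonds. CNFN encodes cornifelin, another envelope component. KLK10 encodes a kallikrein-related secreted protein, and S100A7 encodes psoriasin, a calcium-binding antimicrobial protein of inflamed epidermis. Simple duct epithelium does not form a cornified envelope, while SPRR genes are also known to be induced in simple epithelia under stress or inflammation.

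The SPRR2 genes are close copies, so their coding sequences are shown first, as they bear on how far the counts of SPRR2A and SPRR2D can be told apart. They were read from the GENCODE release 29 transcripts. Capitals mark the bases that differ from SPRR2A.
SPRR2A: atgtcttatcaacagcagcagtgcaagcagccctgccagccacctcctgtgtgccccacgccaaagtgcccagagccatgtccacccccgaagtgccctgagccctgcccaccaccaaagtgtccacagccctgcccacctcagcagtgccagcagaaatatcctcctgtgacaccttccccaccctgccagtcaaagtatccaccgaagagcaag
SPRR2D: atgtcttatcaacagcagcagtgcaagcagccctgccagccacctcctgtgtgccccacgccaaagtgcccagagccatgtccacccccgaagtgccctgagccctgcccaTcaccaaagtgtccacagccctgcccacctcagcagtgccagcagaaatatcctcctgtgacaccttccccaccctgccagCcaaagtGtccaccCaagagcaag
SPRR2E: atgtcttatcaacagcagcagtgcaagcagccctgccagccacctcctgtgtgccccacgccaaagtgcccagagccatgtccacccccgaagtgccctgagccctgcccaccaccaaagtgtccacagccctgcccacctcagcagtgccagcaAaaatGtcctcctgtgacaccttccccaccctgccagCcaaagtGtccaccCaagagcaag
Each sequence is 216 bases long, without the stop codon. SPRR2D differed from SPRR2A at 4 bases, an identity of 98.1%, and SPRR2E differed at 5 bases, an identity of 97.7%. The runs of shared letters cover most of each sequence. Outside the coding part the transcripts differ more. Of all windows of 100 bases in the transcript, 79.7% were unique to SPRR2A for that gene and 95.4% were unique to SPRR2D. At 50 bases the shares were 67.3% and 73.2%, and at 150 bases 89.5% and 100%. How reads that match several copies were treated is not given in the sources used here, so part of the reads of SPRR2A, SPRR2D and SPRR2E may have been exchanged or left out. SPRR1A and SPRR1B share 96.3% of their coding bases, and S100A7 shares 96.0% with S100A7A. For IVL, TGM1, CNFN and SPRR3 every window of 50 bases was unique to the gene.

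Of the 10 members, 7 lie in the epidermal differentiation complex on chromosome 1. In the deposited tables (hg19), SPRR2D lies at chr1:153012201-153014407 and SPRR2A at chr1:153028589-153030013, both on the minus strand and 14.2 kb apart. SPRR1B lies at chr1:153003678-153005376 on the plus strand, 6.83 kb from SPRR2D. From the transcription start of IVL, that of SPRR1A lies 75.5 kb away, that of SPRR3 93.2 kb and that of S100A7 552 kb. TGM1 lies on chromosome 14, and CNFN and KLK10 lie on chromosome 19. The deposited span of SPRR2B covers the loci of SPRR2E and SPRR2F, so these genes also overlap in position.

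Promoter sequence was available for 8 of the 10 members, all but SPRR2D and TGM1, so the motif counts below say nothing about those genes. The 250 bases before the transcription start are shown for SPRR2A, SPRR1B and IVL, 3 envelope genes whose levels moved between the HPDE groups. The sequences are from RefSeq on GRCh38.p14. Capitals mark matches to the AP-1 motif TGANTCA, to TATAAA and to the ETS core GGAAGT, on either strand.
SPRR2A, chr1:153057513-153057762, minus strand: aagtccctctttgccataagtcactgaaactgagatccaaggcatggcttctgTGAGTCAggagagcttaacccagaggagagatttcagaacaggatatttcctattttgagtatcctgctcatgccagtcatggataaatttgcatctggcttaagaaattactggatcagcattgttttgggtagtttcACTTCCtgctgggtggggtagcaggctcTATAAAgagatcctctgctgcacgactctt
SPRR1B, chr1:153030953-153031202, plus strand: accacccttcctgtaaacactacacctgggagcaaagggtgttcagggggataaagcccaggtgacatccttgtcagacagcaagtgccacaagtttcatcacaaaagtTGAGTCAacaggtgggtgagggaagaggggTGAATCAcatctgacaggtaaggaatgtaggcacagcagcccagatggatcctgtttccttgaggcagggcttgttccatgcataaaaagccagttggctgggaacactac
IVL, chr1:152908296-152908545, plus strand: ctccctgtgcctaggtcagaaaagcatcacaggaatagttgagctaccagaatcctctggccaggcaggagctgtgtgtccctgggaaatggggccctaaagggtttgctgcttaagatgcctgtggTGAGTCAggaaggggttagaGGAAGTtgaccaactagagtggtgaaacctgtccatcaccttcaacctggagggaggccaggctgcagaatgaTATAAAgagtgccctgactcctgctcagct
An AP-1 match was found in 5 of the 8 promoters, those of IVL, SPRR1A, SPRR1B, SPRR2A and SPRR3, where 7.71% of 35116 promoter windows of 300 bases held one. TATAAA was found in 5 of 8, against 11.5% of all windows, and GGAAGT in 4 of 8, against 22.8%. The octamer ATTTGCAT was found in SPRR2A alone among the 8, against 1.77% of all windows. The searched motifs for C/EBP (TTGCNNAA) and NF-kB had no match in these 8 windows. The AP-1 motif reads the same on both strands, and no match overlapped a match to another of these motifs in the 3 promoters shown. A match is a description of the letters and not evidence of binding.

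Reads assigned to genes, recovered from the FPKM values (reads scaled to gene length and library total), numbered 29209142 to 42206773 per library in HPDE and 29874928 to 46490312 in HPNE. FPKM is a per-length unit, so levels may be compared between genes. Summed over 8 duct epithelial markers, HPDE libraries held 1445 to 3529 FPKM and HPNE libraries 6.62 to 15.7 FPKM. Summed over 8 mesenchymal markers, HPNE held 11435 to 18215 FPKM and HPDE 78.5 to 152 FPKM. The defining duct markers were therefore low in HPNE, although its label gives a normal pancreas cell. Acinar, endocrine, leukocyte and endothelial markers summed to at most 0.225 FPKM in every library of both lines. Within HPDE the duct marker sum moved with treatment, from 2786 to 3031 in untreated and 3152 to 3529 in residual medium libraries to 1563 to 1824 under PANC-1 EV and 1445 to 1459 under PPCL-68 EV. The part of this shift in the results below was not tested. In these bulk samples, fewer cells of a type and less RNA per cell cannot be told apart.

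Among the 10 members SPRR2D and SPRR2A held the highest levels in treated HPDE, and they responded differently to vesicles. SPRR2D stood at 102 ± 1.88 FPKM with PANC-1 EV and at 143 ± 16 FPKM with PPCL-68 EV (SD, n = 3), against 19.5 ± 1.72 in residual medium and 3.13 ± 0.759 in untreated cells. SPRR2A stood at 14.6 ± 1.22 and 22.2 ± 3.89 FPKM with the respective vesicles and at 21.1 ± 2.90 in residual medium, and its PANC-1 EV libraries lay below those of residual medium. SPRR1B, IVL and KLK10 were highest in residual medium.

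SPRR2D, a crosslinking envelope precursor, measured 2.32, 3.23 and 3.83 FPKM in the untreated HPDE libraries. In residual medium it measured 17.5, 20.6 and 20.4 FPKM. It reached 103.7, 99.9 and 102 FPKM with PANC-1 EV, and 159.9, 140.3 and 128 FPKM with PPCL-68 EV. The 4 groups did not overlap, and every library with vesicles lay above every library without. The mean with PANC-1 EV was 5.23-fold that of residual medium, a difference of 2.33 on the log2(FPKM + 1) scale (SE 0.11, limma adjusted p = 4.37e-10). With PPCL-68 EV the mean was 7.32-fold that of residual medium, a difference of 2.81 (limma adjusted p = 3.85e-11). Against untreated cells SPRR2D was 32.6-fold higher with PANC-1 EV (log2 difference 4.66, limma adjusted p = 2.56e-13) and 45.7-fold higher with PPCL-68 EV (5.13, limma adjusted p = 1.29e-13). The residual medium and untreated libraries in these comparisons are those that chose SPRR2A. Between the vesicle sources, SPRR2D was lower with PANC-1 EV than with PPCL-68 EV by a log2 difference of -0.48 (SE 0.11, limma adjusted p = 0.00248), and no library entered the choice of members there.

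SPRR2A, the close copy of SPRR2D, measured 1.92, 1.57 and 2.04 FPKM in untreated HPDE and 17.8, 21.9 and 23.4 FPKM in residual medium. With PANC-1 EV it measured 15.9, 14.4 and 13.5 FPKM, and with PPCL-68 EV 26.3, 21.7 and 18.6 FPKM. All 9 treated libraries lay above the untreated ones, the PANC-1 EV libraries lay below those of residual medium, and the PPCL-68 EV libraries overlapped residual medium. The residual medium mean was 11.4-fold the untreated mean, which is the value behind the choice. The PANC-1 EV mean was 7.93-fold and the PPCL-68 EV mean 12.1-fold the untreated mean, given as a description because the untreated libraries chose the gene. From residual medium the log2 difference of SPRR2A was -0.49 under PANC-1 EV and 0.07 under PPCL-68 EV, likewise a description. The second value changed sign without residual medium replicate 1 (-0.04) and without PPCL-68 EV replicate 1 (-0.06). Between the vesicle sources, where a test was possible, SPRR2A was lower with PANC-1 EV by -0.56 (SE 0.12, limma adjusted p = 0.00106), with no overlap between the groups.

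**Figure D1:**
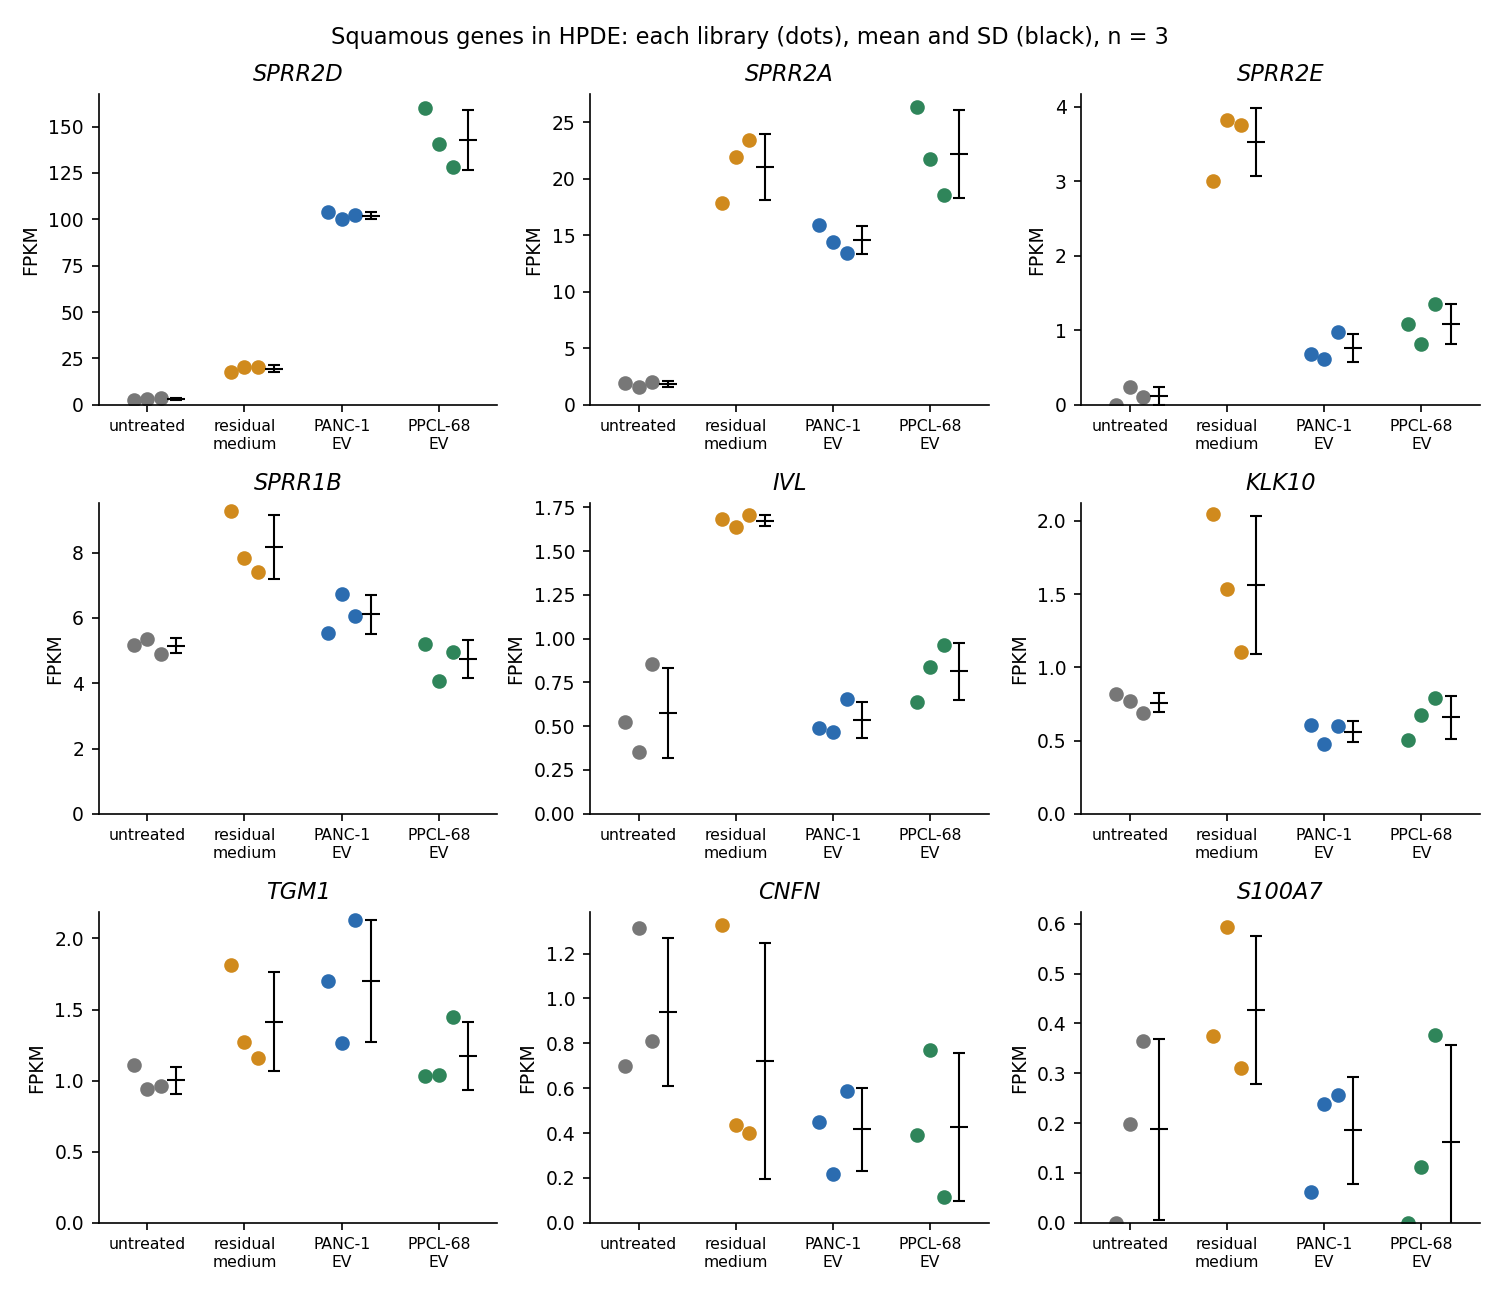
FPKM of 8 members and of the close copy SPRR2E in the 12 HPDE libraries, with each dot a library and black marks the mean and SD of 3 libraries; every panel has its own linear axis from 0. SPRR2D is highest with PPCL-68 EV and PANC-1 EV, while SPRR2E, SPRR1B, IVL and KLK10 are highest in residual medium.

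The balance between the copies is described here without a test against residual medium or untreated cells. SPRR2A was chosen for its high level in residual medium, which by itself lowers the ratio there. Reads may also have been exchanged between the copies. The ratio of SPRR2D to SPRR2A FPKM was 1.72 ± 0.446 in untreated cells and 0.931 ± 0.0571 in residual medium (SD, n = 3). It was 7.01 ± 0.540 under PANC-1 EV and 6.48 ± 0.413 under PPCL-68 EV. The lowest ratio with vesicles, 6.08, lay above the highest ratio without, 2.06. The log2 ratio differed by 0.11 between the vesicle sources, which a two-sided exact permutation test did not separate (p = 0.2, where 0.1 is the smallest it allows). FPKM was summed over SPRR2A, SPRR2B, SPRR2D, SPRR2E, SPRR2F and SPRR2G. SPRR2D made up 60.8% of this sum in untreated cells, 43.3% in residual medium, 86.8% under PANC-1 EV and 85.8% under PPCL-68 EV. The summed level rose from 5.09 ± 0.869 FPKM in untreated cells to 45.2 ± 5.46 in residual medium, 118 ± 2.68 under PANC-1 EV and 166 ± 19.9 under PPCL-68 EV.

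**Figure D2:**
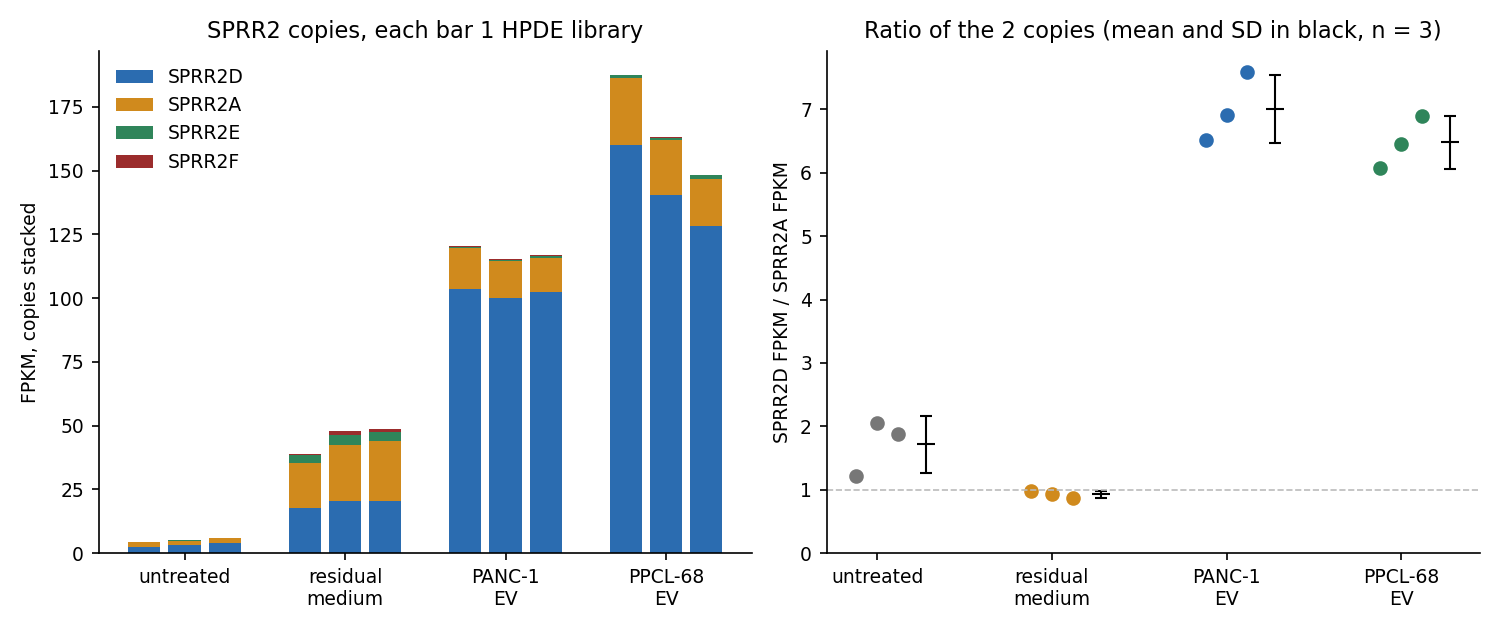
Left, FPKM of the SPRR2 copies stacked in each of the 12 HPDE libraries; right, the ratio of SPRR2D to SPRR2A FPKM per library with the mean and SD of 3, and a dashed line at a ratio of 1. The ratio lies near 1 in residual medium and above 6 in all 6 vesicle libraries.

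SPRR2E, another close copy, measured 0, 0.240 and 0.108 FPKM in untreated HPDE, and 3.01, 3.82 and 3.749 FPKM in residual medium. With PANC-1 EV it measured 0.679, 0.620 and 0.973 FPKM, and with PPCL-68 EV 1.09, 0.817 and 1.35 FPKM. Residual medium was the highest group without overlap, and the vesicle groups lay between it and the untreated group. SPRR2E passed the filter on low values, a mean of 1 FPKM over the 12 libraries, through residual medium alone, so the test with that filter is not used for it. In the fit of every gene with a read, it was lower than in residual medium by log2 differences of -1.37 for PANC-1 EV (limma adjusted p = 2.61e-05) and -1.12 for PPCL-68 EV (limma adjusted p = 7.33e-05). SPRR2F, which reached 1.11 ± 0.514 FPKM in residual medium, stood at 0.217 ± 0.00745 under PANC-1 EV and 0.303 ± 0.171 under PPCL-68 EV (SD, n = 3). SPRR2B, SPRR2G and S100A7A had at most 1 read in any HPDE library, and SPRR2C and SPRR4 at most 8 and 7 reads.

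SPRR1B, the SPRR member with the highest level in untreated HPDE, measured 5.19, 5.35 and 4.90 FPKM there. It measured 9.28, 7.84 and 7.41 FPKM in residual medium, 5.54, 6.74 and 6.07 FPKM with PANC-1 EV, and 5.19, 4.08 and 4.95 FPKM with PPCL-68 EV. Residual medium was highest without overlap, and PPCL-68 EV overlapped the untreated group. SPRR1B was lower than in residual medium with both vesicle sources, by log2 differences of -0.36 for PANC-1 EV (SE 0.09, limma adjusted p = 0.00268) and -0.68 for PPCL-68 EV (limma adjusted p = 1.08e-05), opposite in sign to SPRR2D. It was higher with PANC-1 EV than with PPCL-68 EV by 0.31 (limma adjusted p = 0.0103). That call was lost with limma voom on the recovered reads (limma adjusted p = 0.0606), without PANC-1 EV replicate 2 (0.0506) and without PPCL-68 EV replicate 2 (0.0577). Against untreated cells the log2 difference of SPRR1B was 0.21 under PANC-1 EV (limma adjusted p = 0.0576) and -0.10 under PPCL-68 EV (limma adjusted p = 0.327). The PANC-1 EV value passed the threshold after division by size factors (limma adjusted p = 0.0298). SPRR1A, its near-identical copy, had 0 to 7 reads per HPDE library, and SPRR3, an SPRR gene of internal squamous epithelia, had 0 or 1 read.

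IVL, the scaffold gene, measured 0.523, 0.352 and 0.856 FPKM in untreated HPDE. In residual medium it measured 1.68, 1.64 and 1.70 FPKM, with PANC-1 EV 0.491, 0.465 and 0.654 FPKM, and with PPCL-68 EV 0.636, 0.838 and 0.964 FPKM. The residual medium libraries lay above all 9 others, and the vesicle groups overlapped the untreated group. KLK10 was likewise highest in residual medium, with 2.05, 1.54 and 1.10 FPKM in residual medium and 0.478 to 0.820 FPKM in the other 9 libraries, and its PANC-1 EV libraries lay below the untreated ones. IVL and KLK10 missed the filter of a mean of 1 FPKM narrowly, at 0.900 and 0.885 FPKM over the 12 libraries, as did CNFN at 0.626 FPKM. In the fit without that filter 26.1% of 30190 genes were called for PANC-1 EV against residual medium and 28.9% for PPCL-68 EV. There IVL fell by 0.80 on the log2 scale from residual medium to PANC-1 EV (limma adjusted p = 0.000469) and fell by 0.57 to PPCL-68 EV (limma adjusted p = 0.00366). KLK10 fell by 0.70 (limma adjusted p = 0.00177) and fell by 0.61 (limma adjusted p = 0.00329). These levels are low, and the scale understates their relative change.

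TGM1, the crosslinking enzyme, measured 1.11, 0.939 and 0.959 FPKM in untreated HPDE and 1.81, 1.27 and 1.16 FPKM in residual medium. It measured 1.70, 1.27 and 2.13 FPKM under PANC-1 EV and 1.04, 1.04 and 1.45 FPKM under PPCL-68 EV. The PANC-1 EV libraries lay above the untreated ones and overlapped the other groups. TGM1 was higher with PANC-1 EV than in untreated cells by 0.42 (SE 0.13, limma adjusted p = 0.0112), a call lost without PANC-1 EV replicate 3 (limma adjusted p = 0.0640) and without the filter (0.0542). It did not pass the test between the vesicle sources (log2 difference 0.30, limma adjusted p = 0.0613), where voom gave 0.51 (limma adjusted p = 0.0446), nor against residual medium with PANC-1 EV (0.16, limma adjusted p = 0.294) or PPCL-68 EV (-0.15, limma adjusted p = 0.325). CNFN measured 0.697, 1.31 and 0.809 FPKM in untreated HPDE and 0.115 to 1.33 FPKM in the 9 others. Its PANC-1 EV libraries lay below the untreated ones, and without the filter that difference was -0.45 (limma adjusted p = 0.208). S100A7 stayed at 0 to 0.594 FPKM, with 0 to 10 reads per library.

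Of the 10 members, 4 passed the filter in HPDE, SPRR1B, SPRR2A, SPRR2D and TGM1, and SPRR1A, SPRR3, IVL, CNFN, KLK10 and S100A7 did not. Of these 4, 3 were called between PANC-1 EV and PPCL-68 EV, 1 higher and 2 lower, where 50.1% of 12223 genes were called (25.2% higher and 24.9% lower). Against residual medium 2 of 3 members other than SPRR2A were called for each vesicle source, SPRR2D higher and SPRR1B lower, where 63.3% of genes were called for PANC-1 EV (28.2% higher, 35.1% lower) and 67.7% for PPCL-68 EV (31.3% higher, 36.4% lower). Against untreated cells 2 of 3 were called for PANC-1 EV (background 60.6%) and 1 of 3 for PPCL-68 EV (background 66.3%). Shares of members near these backgrounds do not set the members apart. In the comparison that chose SPRR2A, residual medium against untreated, the log2 differences were 2.95 for SPRR2A, 2.33 for SPRR2D, 0.57 for SPRR1B and 0.26 for TGM1, where 20.0% of genes were called.

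Counted over all 10 members without a filter, 7 lay higher in residual medium than in untreated HPDE without overlap and 0 lay lower, where 9.6% of 30190 genes with a read lay higher in this way and 11.6% lower. SPRR2A is among the 7 and was chosen by this comparison, so nothing is read from that count. SPRR3 was among the 7 on 1 read per library. From residual medium to PANC-1 EV, SPRR2D lay higher (background 16.4%) and 6 members lay lower, SPRR1B, SPRR2A, SPRR3, IVL, KLK10 and S100A7 (background 18.3%). To PPCL-68 EV, SPRR2D lay higher (background 17.2%) and SPRR1B, IVL and KLK10 lay lower (background 19.3%). These comparisons share the residual medium libraries, whose high SPRR2A level chose the set. SPRR3 and S100A7 had at most 1 and 10 reads in any HPDE library. Nothing is therefore read from these counts either.

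**Figure D3:**
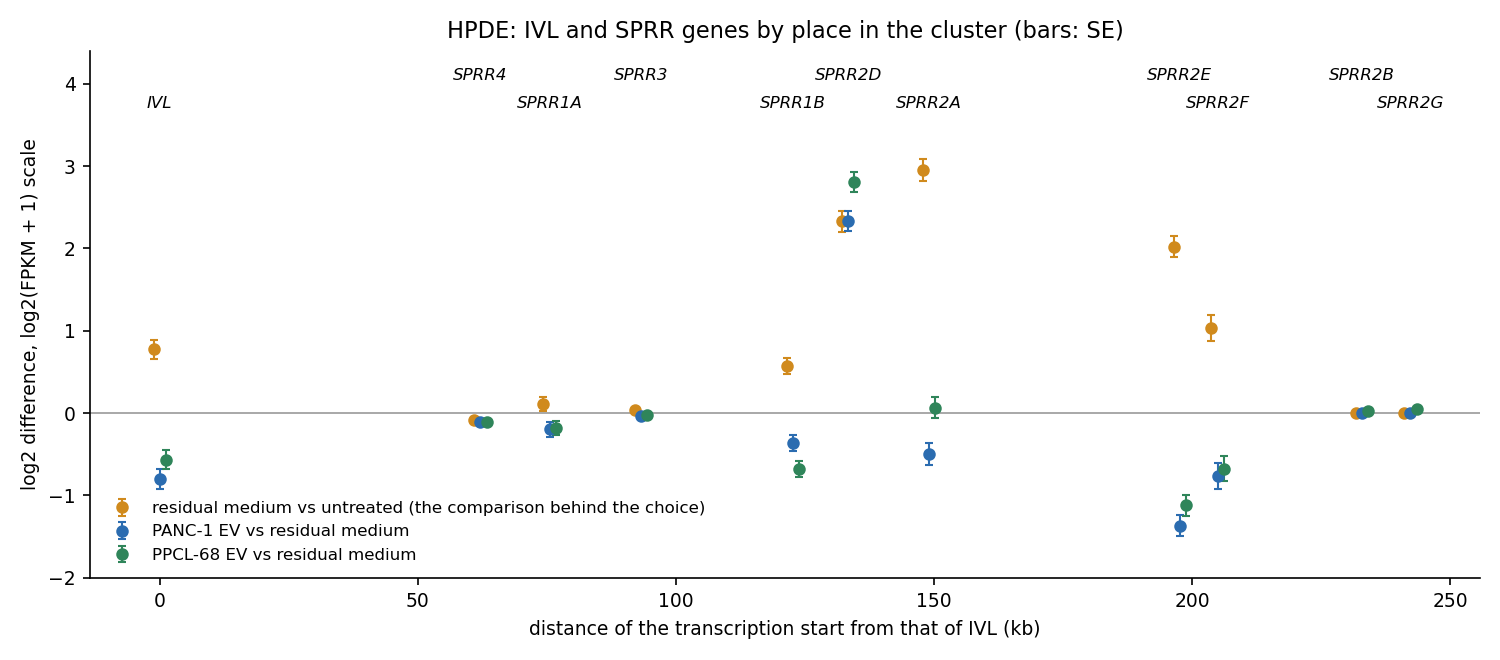
Log2 differences, on the log2(FPKM + 1) scale, of IVL and the SPRR genes in HPDE against the distance of their transcription start from that of IVL in kb, with bars for the SE. SPRR2D is the gene with points at 2.33 and 2.81 for the vesicle comparisons, and SPRR1B, SPRR2E, SPRR2F and IVL lie below 0 there.

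The plot of differences by position shows IVL and the SPRR genes along the cluster. The start of SPRR1B lies 122.7 kb, that of SPRR2D 133.4 kb, that of SPRR2A 149.0 kb and that of SPRR2E 197.6 kb from the start of IVL. SPRR2D was higher with both vesicle sources than in residual medium, while SPRR1B, its neighbour on one side, was lower with both. SPRR2A, its neighbour on the other side, was lower with PANC-1 EV (-0.49) and near its residual medium level with PPCL-68 EV (0.07), as a description. SPRR2E, farther on that side, was lower with both. The sequencing libraries kept no strand, so antisense reads at these loci cannot be told apart.

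In HPNE the members were nearly undetected. SPRR1A, SPRR3 and S100A7 had 0 reads in each of the 12 libraries, as did SPRR2B, SPRR2C, SPRR2E, SPRR2F, SPRR2G, SPRR4 and S100A7A, where 3 reads per library is the limit a count of 0 allows. SPRR1B, SPRR2A and KLK10 each had 1 read over the 12 libraries. SPRR2D had 17 reads in all, of which 7 and 8 fell in PPCL-68 EV replicates 2 and 3 and 1 each in untreated replicate 1 and PANC-1 EV replicate 1. IVL had 20 reads and CNFN 16 reads over the 12 libraries, with at most 6 in one library. TGM1 was present in all 12, at 0.298 ± 0.164 FPKM in untreated cells, 0.250 ± 0.116 in residual medium, 0.262 ± 0.0514 under PANC-1 EV and 0.466 ± 0.0634 under PPCL-68 EV (SD, n = 3). The PPCL-68 EV libraries of TGM1 (0.404 to 0.530 FPKM) lay above those of residual medium (0.134 to 0.367 FPKM) and of PANC-1 EV (0.217 to 0.318 FPKM). They overlapped the untreated libraries (0.138 to 0.465 FPKM). The share of all genes that lay apart in this way is not given for HPNE, so nothing is read from it.

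No member passed the filter in HPNE. In the fit without it, 7 members had a read and 0 were called by limma in any of the comparisons. Between residual medium and untreated cells 17.2% of 28966 genes were called and 0 members had an unadjusted p under 0.05. For PANC-1 EV against residual medium the background was 6.5%, and 1 member, IVL, had an unadjusted p under 0.05. For PPCL-68 EV against residual medium it was 13.7%, and SPRR2D (0.24, limma adjusted p = 0.0776) and TGM1 (0.23, limma adjusted p = 0.157) had one. Between the vesicle sources it was 1.16%, and the same 2 genes had one (SPRR2D limma adjusted p = 0.242, TGM1 0.375). There same-numbered libraries deviated together. A fit of these 6 libraries alone, blocked on replicate number and without the filter, called 0 of 26944 genes, so nothing is read from the absence of members. In it TGM1 had an unadjusted p under 0.05 (limma adjusted p = 0.226). Because voom was run on filtered genes, it tested no member here.

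**Figure D4:**
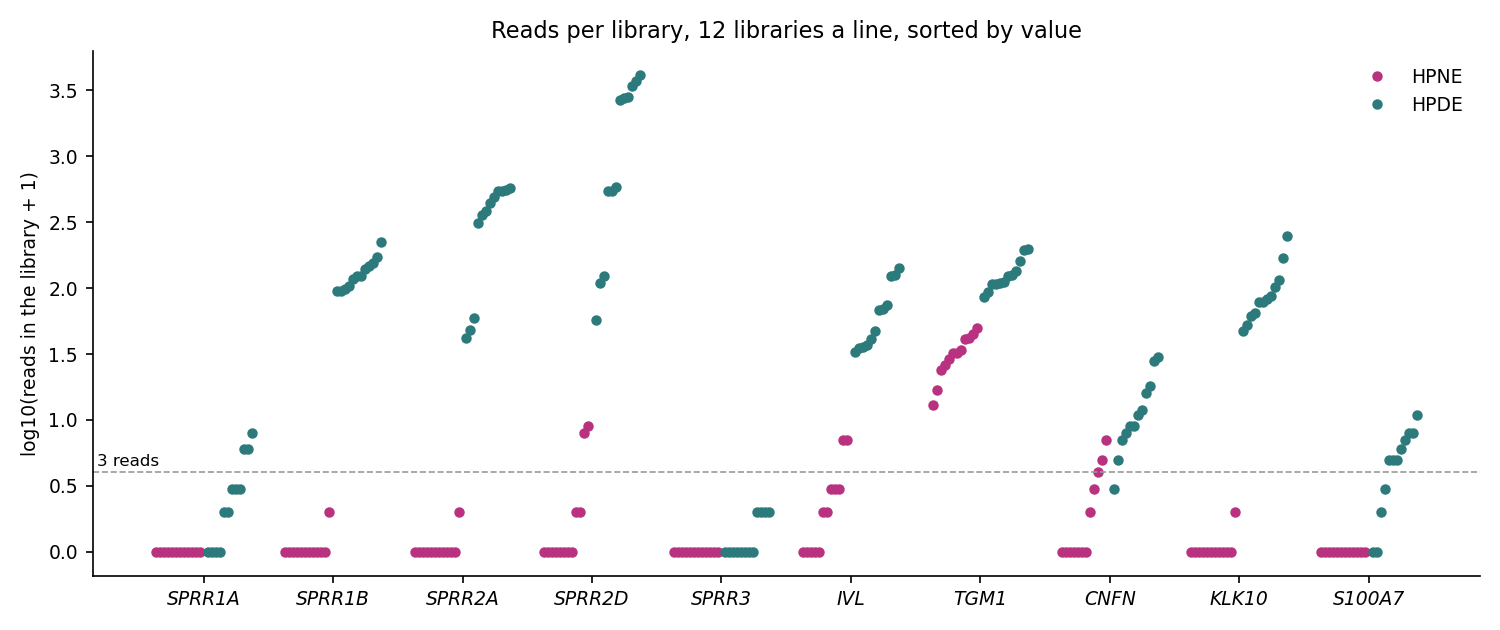
Reads of each member per library, as log10(reads + 1), with the 12 libraries of each line sorted by value; the dashed line marks 3 reads. TGM1 is the member above 3 reads in all 12 HPNE libraries, while 6 members (SPRR1B, SPRR2A, SPRR2D, IVL, TGM1 and KLK10) are above it in all 12 HPDE libraries.

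Untreated HPDE held more of these transcripts than untreated HPNE. Against the limit of 3 reads in each HPNE library, SPRR1B was at least 35.3-fold higher, KLK10 at least 26.1-fold higher and SPRR2A at least 14.5-fold higher. SPRR1B, SPRR2A and SPRR2D passed the filter over the 24 libraries through HPDE alone, which settles the direction of a test between the lines, and SPRR2A was also chosen with these untreated libraries. The log2 differences of 2.62 for SPRR1B and 2.01 for SPRR2D are therefore given without a test. In the fit, 83.8% of 12377 genes were called between the untreated lines, and nothing is read from the calls of these members. Size factors moved the median difference of all genes between the lines from 0.38 to 0.03, so these values are best read relative to that shift.

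Whether the effect of vesicles against residual medium differed between the lines could hardly be assessed for the members. SPRR1B and SPRR2D entered the fit of the 24 libraries through HPDE alone, and HPNE supplied 0 to 8 reads of them per library. The HPDE effect minus the HPNE effect was 2.32 for SPRR2D and -0.36 for SPRR1B under PANC-1 EV, and 2.57 and -0.70 under PPCL-68 EV. These values repeat the HPDE effects nearly or exactly: for SPRR1B under PANC-1 EV both are -0.36. Both genes were called by limma on the log2(FPKM + 1) scale (background 21.2% for PANC-1 EV and 25.7% for PPCL-68 EV), and nothing is read from those calls. On recovered reads with voom neither was called, with limma adjusted p of 0.228 and 0.893 for SPRR2D and 0.818 and 0.124 for SPRR1B under PANC-1 EV and PPCL-68 EV.

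Other genes of the squamous programme were followed in HPDE in lists written for this purpose. Between the vesicle sources, 8 of 9 tested keratins of stratified epithelium were higher with PANC-1 EV and 1 was lower, with a median log2 difference of 0.60 against -0.002 over all genes, of which 25.2% were higher and 24.9% lower. KRT5, a basal keratin, stood at 861 FPKM under PANC-1 EV and 326 FPKM under PPCL-68 EV (1.40, limma adjusted p = 5.27e-09), and its partner KRT14 at 265 and 131 FPKM (1.01, limma adjusted p = 4.04e-06). TP63, the basal squamous transcription factor, stood at 140 and 63.4 FPKM (1.13, limma adjusted p = 8.32e-09). These basal genes were higher with PANC-1 EV than with PPCL-68 EV, where SPRR2D and SPRR2A were lower. In untreated cells KRT5 and KRT14 stood at 1804 and 482 FPKM, above their levels with either vesicle source. Between the vesicle sources, other squamous genes went both ways. SPRR1B (0.31), KRT6B (0.66) and CLDN1 (0.94) were higher with PANC-1 EV, while CST6 (-0.54) was lower.

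Against residual medium, 7 of 9 keratins were lower and 1 higher with PPCL-68 EV, with a median of -0.95, and 4 were lower and 0 higher with PANC-1 EV, with a median of -0.22. The all-gene medians were -0.03 and -0.04. Of all genes tested, 31.3% were higher and 36.4% lower than in residual medium with PPCL-68 EV, and 28.2% were higher and 35.1% lower with PANC-1 EV, and the counts of every list below are to be read against these shares. KRT6A, a keratin of activated epidermis, fell from 625 FPKM to 414 FPKM with PANC-1 EV (-0.59, limma adjusted p = 7.22e-06) and to 273 FPKM under PPCL-68 EV (limma adjusted p = 3.46e-09). Of 10 tested S100 genes, 7 were lower under PANC-1 EV and 5 under PPCL-68 EV, and 0 were higher with either; the 5 of 10 is not far from the share of all genes. S100A2, a calcium-binding protein of basal keratinocytes, fell from 1758 FPKM to 741 FPKM with PANC-1 EV (limma adjusted p = 4.66e-06) and to 630.5 FPKM under PPCL-68 EV (limma adjusted p = 6.11e-07). Of 14 desmosome and crosslinking genes, 7 were lower and 3 higher with PANC-1 EV, and 9 lower and 4 higher with PPCL-68 EV, where the counts of higher genes were near or below the share of all genes. SCEL, which encodes the envelope precursor sciellin, fell by 0.93 (limma adjusted p = 8.18e-07) and fell by 1.49 (limma adjusted p = 4.02e-09).

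Of 22 tested regulators of squamous differentiation, 13 were higher and 4 lower with PANC-1 EV than in residual medium, with a median of 0.28, and 12 were higher and 5 lower with PPCL-68 EV, with a median of 0.19. CEBPB, a transcription factor of differentiating and stressed epithelium, rose from 85.8 to 159 FPKM under PANC-1 EV (0.89, limma adjusted p = 1.64e-07) and to 194 FPKM under PPCL-68 EV (1.17, limma adjusted p = 5.36e-09). KLF4, a barrier regulator, rose from 6.73 to 13.2 FPKM under PANC-1 EV (0.87, limma adjusted p = 1.97e-07). GRHL3, a regulator of epidermal barrier genes, fell from 2.74 to 1.22 FPKM with PPCL-68 EV (limma adjusted p = 9e-05). Among 19 other envelope precursors of the complex, 2 were tested: FLG, the filaggrin gene, was lower than in residual medium with PANC-1 EV (-0.36, limma adjusted p = 0.00265) and PPCL-68 EV (-0.34, limma adjusted p = 0.00396). LCE3D, a late envelope gene, rose from 1.28 to 2.32 FPKM with PPCL-68 EV (0.56, limma adjusted p = 0.00739). The summed duct epithelial markers, given above, fell in the same vesicle libraries as the keratins, and their part in these differences was not tested.

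In the list of kallikreins and protease inhibitors, the 6 genes tested were all inhibitors, and no kallikrein was tested. Of these 6, 2 were higher and 3 lower with PANC-1 EV than in residual medium. With PPCL-68 EV 2 were higher and 2 lower, and both are near the shares of all genes for so few. SERPINB2, an inhibitor of plasminogen activators that is incorporated into the envelope, rose from 108 FPKM to 227 FPKM (1.09, limma adjusted p = 3.26e-06) and to 249 FPKM (1.22, limma adjusted p = 7.14e-07). Of 11 tested late squamous genes, 3 were higher and 6 lower than in residual medium with each source, and the 3 higher are near the share of all genes. CLDN1, the barrier claudin, rose from 54.7 to 148 FPKM under PANC-1 EV (1.42, limma adjusted p = 1.99e-11), and EMP1, a membrane protein of squamous cells, fell from 56.4 to 27.8 FPKM (-0.99, limma adjusted p = 6.8e-10).

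**Figure D5:**
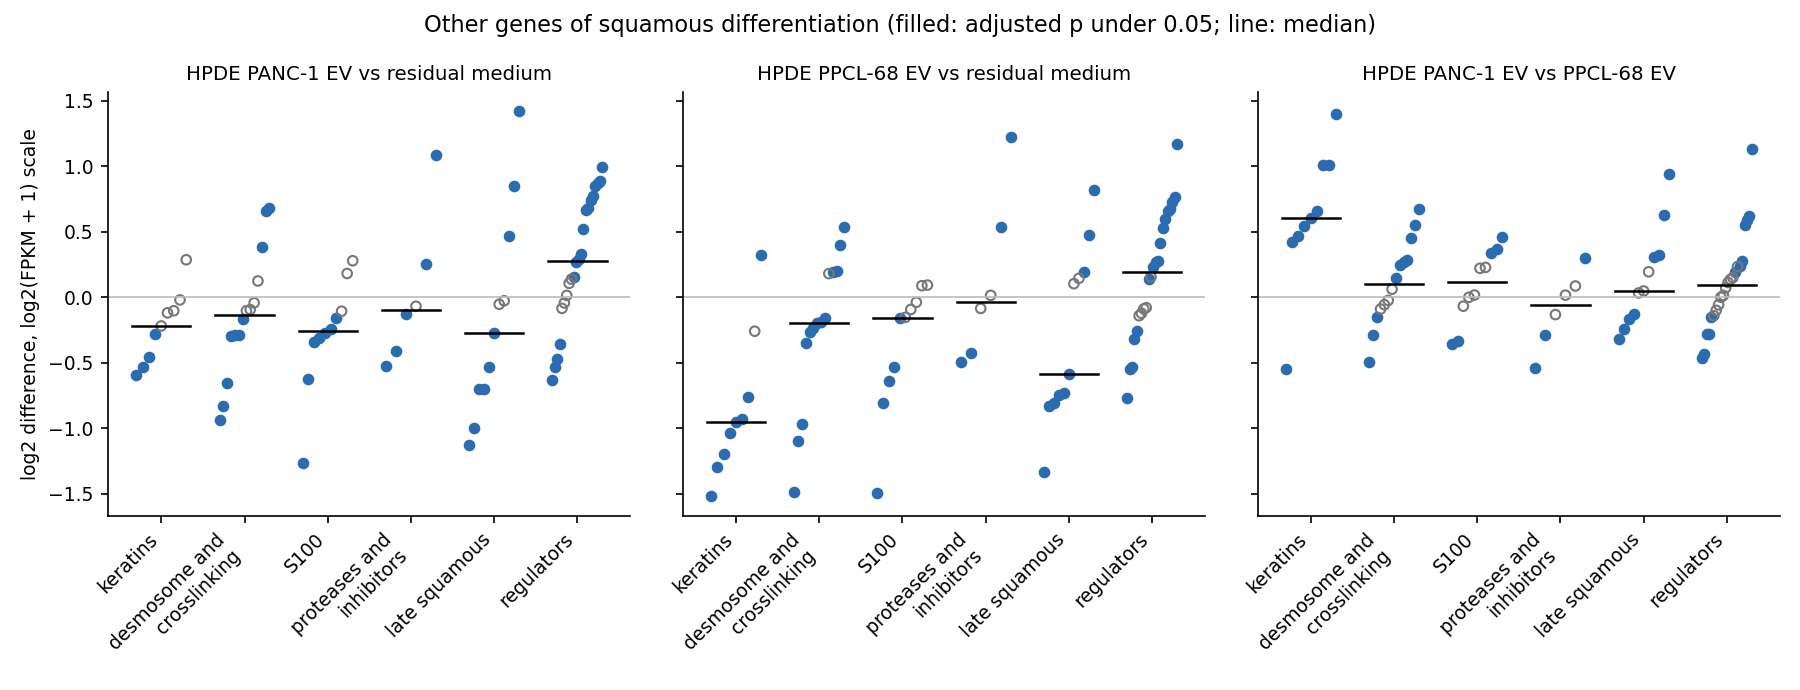
Log2 differences, on the log2(FPKM + 1) scale, of the tested genes of 6 lists in 3 HPDE comparisons, with filled dots for a limma adjusted p under 0.05 and a line at each list's median. Keratins lie mostly below 0 for PPCL-68 EV against residual medium (median -0.95) and above 0 for PANC-1 EV against PPCL-68 EV (median 0.60).

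The genes most like SPRR2A over the 12 HPDE libraries, by Pearson correlation of log2(FPKM + 1), were IGFBP3 (r = 0.986), PLAUR (0.982), DEFB4A (0.963), MCL1 (0.961) and LIF (0.959). All 5 had their lowest mean in untreated cells and similar means in the 3 treated groups: IGFBP3 averaged 2.13 FPKM in untreated cells and 8.50, 7.92 and 8.42 FPKM with residual medium, PANC-1 EV and PPCL-68 EV. DEFB4A, which encodes an inducible epithelial defensin, averaged 1.18, 16.6, 20.5 and 19 FPKM in the same order. The genes most like the mean of the 4 tested members, each scaled to its own mean and SD, were ARHGEF37 (0.975), ELF3 (0.967), PI3 (0.966), SERPINB1 (0.963) and S100A9 (0.961). PI3 encodes elafin, an inhibitor crosslinked into the envelope, and averaged 2.64, 19.1, 13.9 and 13 FPKM. These correlations describe 12 libraries that share the difference between untreated and treated groups, through which SPRR2A was chosen.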

How the data were processed

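RNA was extracted with a column kit and made into non-directional libraries, per the labels' protocols, so strand was not kept. The submitters' processing notes name CASAVA, STAR, HTSeq, DESeq2 and hg19. Settings, versions and the treatment of reads that match several places are not given in the sources used here. The authors deposited 1 table of FPKM values per library for 48162 genes. In every library 100% of the values came out as whole reads (tolerance 0.01), per the file headers' gene lengths, and these gave the depth. A gene above 3 reads was taken as above the floor, which covers counting error only.

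The test was limma 3.58.1 (R 4.3.3; lmFit, eBayes with a trend) on log2(FPKM + 1), two-sided, with Benjamini-Hochberg adjustment over all genes tested and a threshold of 0.05. The 12 libraries of a line entered 1 fit, for genes with a mean of at least 1 FPKM, and line contrasts used all 24. Such differences understate the change of weakly expressed genes. A ratio was compared with an exact permutation test (scipy 1.17.1). The titles of the samples gave the groups and the replicate numbers. No 2 replicates agreed within sampling noise (chi-square per degree of freedom 3.90 to 11.5 in HPDE and 4.25 to 149 in HPNE). The replicate numbers carry no stated meaning. In HPNE, every same-numbered pair of PANC-1 EV and PPCL-68 EV libraries deviated together (correlations of 0.565, 0.292 and 0.4997), and no other pair of groups showed this, so a block was fitted there on its own. The alternatives were a pseudocount of 0.1, no filter, size factors, only the groups compared, a replicate block, voom on recovered reads, and leaving out each library.

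The members and gene lists were chosen with earlier results of these data known. Beside the members, up to 4 genes could be named from each list and comparison, those with the largest change among called genes whose groups did not overlap, and the 5 genes most like SPRR2A or the tested members. On simulated reads with 200 genes changed 2-fold for PANC-1 EV against residual medium, 97% were recovered among 12224 genes in HPDE and 98% among 11481 in HPNE, with 12 and 17 unchanged genes called. The simulation gave every gene of both lines the same fixed spread. Measured replicates differed more in HPNE (chi-square per degree of freedom up to 149) than in HPDE (up to 11.5). The simulated shares therefore do not give the recovery in the real libraries, least of all in HPNE. PECAM1, 1 of 4 endothelial markers, was not analysed here.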

Additional observations from a re-analysis of the deposited data

Results flagged for a closer look

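For 2 of the 10 members a limma contrast of the vesicle effect in HPDE with that in HPNE, over the 24 libraries, passed the threshold. For SPRR2D the HPDE effect exceeded the HPNE effect by 2.32 on the log2 scale for PANC-1 EV (adjusted p = 1.15e-08) and by 2.57 for PPCL-68 EV (adjusted p = 7.63e-10). For SPRR1B the PANC-1 EV difference was -0.36 (adjusted p = 0.0267). The PPCL-68 EV difference was -0.70 (adjusted p = 0.00014). SPRR1B had 1 read and SPRR2D 17 reads over the 12 HPNE libraries, and both passed the filter through HPDE alone, so these values largely repeat the HPDE effect and cannot show how the lines compare. On recovered reads with voom neither passed (adjusted p of 0.228 and 0.893 for SPRR2D and 0.818 and 0.124 for SPRR1B). Groups of 3 libraries were too small for a check of single outlying libraries.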

How the results depend on the processing

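Of 12 counts of members called, division by size factors and the replicate block changed none beyond 1.5 times. For PANC-1 EV against residual medium in HPDE, 2 members were called, against 5 without the filter (SPRR3 among them, on at most 1 read) and 4 with only the groups compared. For PPCL-68 EV the 2 became 4 and 4. Of all genes, 26.1% for PANC-1 EV and 28.9% for PPCL-68 EV were called without the filter. For the other changed counts here no share of all genes is given, and they are not read as a result about the members. For PANC-1 EV against untreated HPDE the 2 became 1 without the filter, and ranged from 1 to 3 over the libraries left out. For the line difference with PANC-1 EV the 2 became 1 with a pseudocount of 0.1, 4 without the filter, 0 with voom, 1 with only the groups compared, and 1 to 2 over the libraries left out. With PPCL-68 EV the 2 became 4 without the filter and 0 with voom. Between the untreated lines the 3, SPRR2A included, became 7 without the filter. Those 3 passed the filter through HPDE alone, so nothing is read from these counts. More genes enter without the filter by construction. Otherwise the cause of the changed counts was not tested. Leaving out libraries gave 2 to 4 members between the vesicle sources in HPDE. SPRR2A changed sign for PPCL-68 EV against residual medium in HPDE without residual medium replicate 1 (-0.04) and without PPCL-68 EV replicate 1 (-0.056), and ranged from -0.056 to 0.184 over the libraries left out. Its line difference changed sign with voom for PANC-1 EV (0.19) and, for PPCL-68 EV, without the same libraries (-0.027 and -0.041, with a highest value of 0.1995). SPRR2D kept its direction and call in every HPDE comparison with vesicles under all alternatives. In HPDE the replicate numbers did not pair the samples, with mean correlations of same-numbered deviations of -0.141 to 0.029. With the replicate block, SPRR2D differed between the vesicle sources by -0.48 (limma adjusted p = 0.00409), and no call of a member changed. In HPNE the block between the vesicle sources, on those libraries alone, raised LCE2A past the threshold with the filter but not without it. With 3 libraries a group, counts under about 10 reads limit SPRR1A, SPRR3 and S100A7.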

Other observations

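An envelope gene of the same chromosome 1 complex ran opposite to the members between the lines. LCE2A, a late cornified envelope gene, had 0 reads in all 12 HPDE libraries, while in HPNE it measured 10.3 ± 7.91 FPKM in untreated cells, 22.2 ± 8.44 in residual medium, 26.7 ± 15.7 under PANC-1 EV and 7.37 ± 2.86 under PPCL-68 EV (SD, n = 3). No fold is given against a line at 0. In HPNE its difference of 1.56 between the vesicle sources did not pass the test (limma adjusted p = 0.136). It passed with the replicate number as a block in a fit of those 6 libraries alone (limma adjusted p = 0.00966), chosen after seeing the data. Without the filter the same blocked fit did not call LCE2A (limma adjusted p = 0.109) and called 0 of 26944 genes. LCE3A and LCE3D, unlike LCE2A, were highest in HPNE residual medium, at 4.16 ± 3.66 and 2.85 ± 2.51 FPKM, with a wide spread between libraries.

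In HPNE, where the members were nearly undetected, KLF4 and SERPINB2 changed. KLF4, a barrier regulator, averaged 16.5 FPKM in untreated cells, 3.30 in residual medium, 19.8 under PANC-1 EV and 16.2 under PPCL-68 EV. It fell by 2.11 from untreated to residual medium (limma adjusted p = 0.000586) and was higher than in residual medium by 2.37 with PANC-1 EV (limma adjusted p = 0.000701) and by 2.12 with PPCL-68 EV (limma adjusted p = 0.000485). SERPINB2, a protease inhibitor, rose from 1.91 to 78.0 FPKM between untreated cells and residual medium (4.75, limma adjusted p = 3.6e-05).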
